A study of Mus musculus with 8 samples.

Results

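Keratins are the intermediate filament proteins of epithelia. An acidic type I chain pairs with a basic type II chain, and each kind of epithelium makes its own pairs: Krt5 with Krt14 in the basal layer of skin, Krt1 with Krt10 in the layers above it, Krt6a and Krt6b with Krt16 and Krt17 in stressed skin and its appendages, and Krt8 with Krt18 in simple epithelia and in carcinomas derived from them. Hair keratins and inner root sheath keratins belong to the growing hair follicle.

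The keratin genes described here were all protein-coding mouse genes named Krt with a number in GENCODE M21, without the keratin-associated proteins, and 53 of the 55487 identifiers in the count table met this rule. They comprised 3 basal, 6 suprabasal, 6 stress and appendage, 7 simple epithelial, 5 internal stratified, 7 inner root sheath, 15 hair cortex and cuticle, and 4 other keratins. All lie in 2 clusters, 27 genes on chromosome 11 and 26 on chromosome 15, where Krt18 is the type I gene that sits among the type II genes.

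RNA was sequenced from whole subcutaneous tumors of Lewis Lung Carcinoma (LLC) cells, a mouse lung carcinoma line, grown in syngeneic C57BL/6J mice and taken on day 12. The 4 wild-type tumors came from unedited LLC cells and the 4 ΔAgo2 tumors from LLC cells in which a CRISPR guide had disrupted Ago2, which encodes an effector of RNA interference. The mice were wild-type for Ago2, so host cells in every tumor could transcribe the gene, and the edited line was derived from a single cell. The labels call the tumors biological replicates, and all 8 carry the same batch label.

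Total counts ranged from 7903288 in wild-type tumor 4 to 268564145 in ΔAgo2 tumor 4. CPM (counts scaled to the library total) are used below to compare tumors, and the deposited TPM (transcript counts scaled to gene length and library total), which allow for gene length, to compare genes. Ago2 itself was at 118 to 355 CPM in the ΔAgo2 tumors and at 130 to 195 CPM in the wild-type tumors, so its transcript level did not separate the genotypes (quasi-likelihood test of edgeR, adjusted by Benjamini-Hochberg, log2 fold change 0.64 ± 0.305, SE, adjusted p = 0.205). Wild-type tumor 3 stood apart: 10 skeletal muscle genes summed to 5444 TPM there and to between 99.2 and 558 TPM in the other tumors. Keratin comparisons are therefore given with and without it.

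Krt18 and Krt8 were abundant in all 8 tumors. The epidermal keratins, led by Krt14, were present at widely varying levels and nearly missing from wild-type tumor 3, which in turn contained the keratins of the hair follicle's inner root sheath. Between genotypes, the suprabasal keratins stood highest in the ΔAgo2 tumors relative to wild-type among the 4 abundant classes. Krt10 was the keratin that passed the test, though not in most alternative fits.

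Promoter sequences are shown for 4 keratins because the results turn on them: Krt10, which was higher in the ΔAgo2 tumors, Krt77, which came nearest to the threshold after it, and Krt71 and Krt25, the most abundant inner root sheath keratins of wild-type tumor 3. RefSeq promoter entries on build GRCm38.p6 were matched by symbol for 36 of the 53 keratins. Each line gives the 100 bases before the annotated start, 5′ to 3′ on the gene's own strand, with capitals for TATAAA.
Krt10, chr11:99389365-99389464, minus strand: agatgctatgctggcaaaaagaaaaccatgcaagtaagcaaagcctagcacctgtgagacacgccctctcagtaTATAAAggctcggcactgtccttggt
Krt77, chr15:101869706-101869805, minus strand: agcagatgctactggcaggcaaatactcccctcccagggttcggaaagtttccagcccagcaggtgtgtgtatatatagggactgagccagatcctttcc
Krt71, chr15:101743098-101743197, minus strand: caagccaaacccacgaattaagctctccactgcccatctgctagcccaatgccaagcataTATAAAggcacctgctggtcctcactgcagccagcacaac
Krt25, chr11:99322952-99323051, minus strand: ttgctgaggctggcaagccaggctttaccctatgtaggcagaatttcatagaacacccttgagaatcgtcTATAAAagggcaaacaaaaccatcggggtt

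TATAAA began 26 bases before the start of Krt10, 30 before that of Krt25 and 40 before that of Krt71. In the full window of 250 bases before to 50 after the start, searched on both strands, TATAAA was present in 19 of 37 keratin promoter entries (51.4%) and in 13.6% of all 32851 entries. All 7 inner root sheath entries held it, 6 of 9 hair cortex and cuticle entries, 1 of 5 suprabasal and 0 of 2 basal ones. Of the 37 entries, 24 started within 10 bases of the GENCODE start of their gene. The Krt14 entry, a basal one, started 1518 bases from it, inside the gene, and the Krt7 entry 1360 bases from it. The class counts therefore do not all describe the sequence at the GENCODE start. The GC box GGGCGG was in 5.41% of keratin entries against 35.7% of all, and the AP-1 motif TGANTCA in 5.41% against 7.81%. These are matches of letters in a window, with no measurement of binding.

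Of the 53 keratins, 4 had no count in any tumor (Krt9, Krt40, Krt82 and Krt88), 29 had counts but were too low to test, and 20 were tested. The keratin sum of wild-type tumors 1 to 4 was 2257, 3014, 974 and 1827 TPM, and that of ΔAgo2 tumors 1 to 4 was 2561, 2966, 4359 and 4519 TPM, which is 0.0974% to 0.452% of the transcripts of a library.

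**Figure D1:**
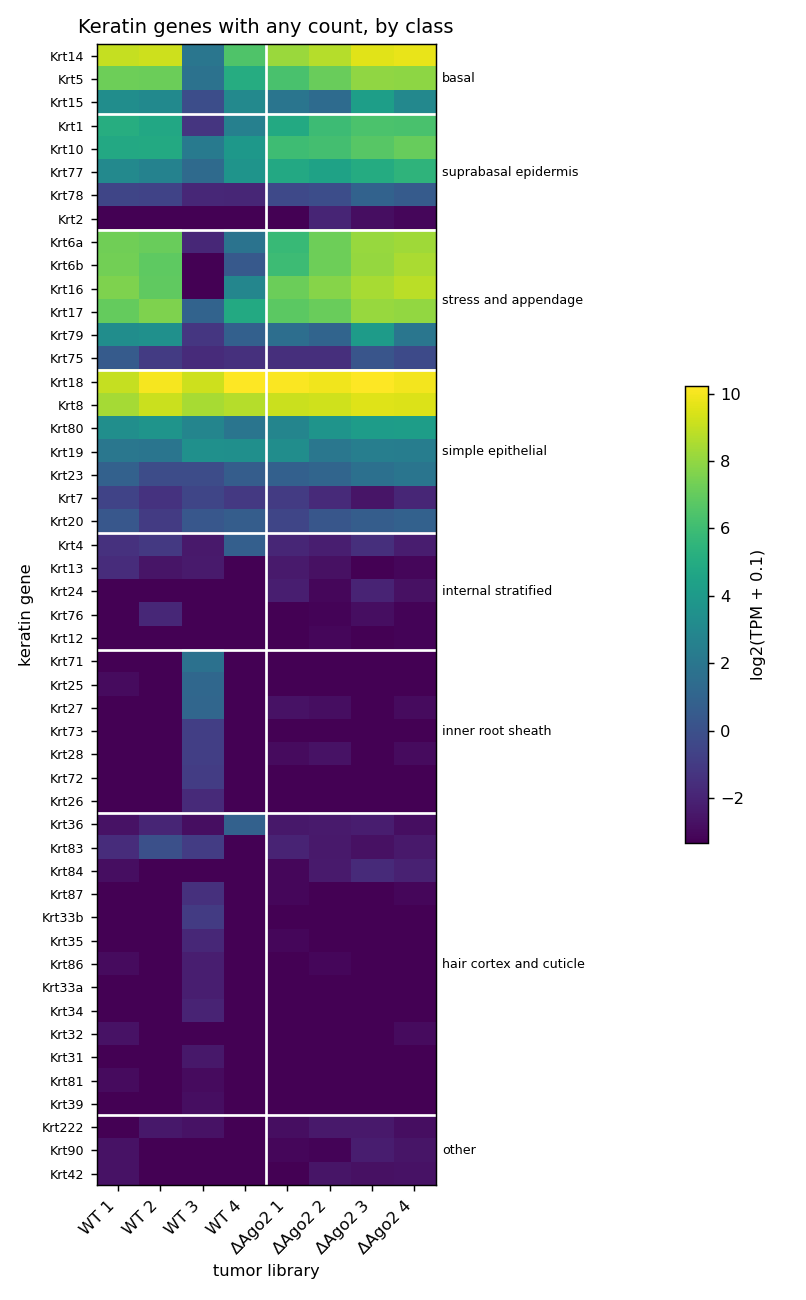
Level of each keratin with any count, as log2(TPM + 0.1), in the 4 wild-type (WT) and 4 ΔAgo2 tumors, with genes grouped by class. Krt18 and Krt8 are high in all 8 tumors, the basal, suprabasal and stress keratins are low in WT 3, and the inner root sheath keratins stand out only there.

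Krt18 and Krt8, the partners of simple epithelia, were at a high level in every tumor. Krt18 had 511, 1047, 572 and 1185 TPM in the wild-type tumors, in order of replicate, and 1109, 968, 1158 and 1018 TPM in the ΔAgo2 tumors. Krt8 was at 336, 567, 353 and 413 TPM in wild-type and at 562, 604, 736 and 723 TPM in ΔAgo2 tumors. Wild-type tumor 3 was close to wild-type tumor 1 for both genes, and the groups overlapped for both.

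The Krt18 to Krt8 ratio of TPM lay between 1.41 and 2.87 over the 8 tumors. The counts of Krt8 are less certain than those of Krt18, because 17.1% of the 100-base windows of its transcript also occur elsewhere, nearly all in the pseudogene Krt8-ps, against 0% for Krt18. Neither gene passed the test between genotypes (Krt8 log2 fold change 0.43 ± 0.250, SE, adjusted p = 0.287; Krt18 0.11 ± 0.377, adjusted p = 0.873). Leaving out wild-type tumor 3 gave 0.32 ± 0.266 for Krt8 and -0.07 ± 0.378 for Krt18. Krt8 passed the test after correction for GC content (0.83, adjusted p = 0.0195) and with limma voom, in a range of 0.0195 to 0.465 over all alternatives. Fold change and GC content were correlated across genes (Spearman's rho -0.561 over 15900 genes, which are not independent replicates), and the tested keratins had a median GC content of 54.4% against 49.8% for all genes.

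The other simple keratins were far lower. Krt80, found in several epithelia and in hair, was at 3.80 to 12.7 TPM in wild-type and 7.12 to 18.6 TPM in ΔAgo2 tumors. Krt19, of ductal epithelia, was at 3.73 to 11.1 TPM and 3.98 to 9.75 TPM, respectively. Krt23, Krt20 and Krt7 did not exceed 3.75, 1.73 and 0.62 TPM in any tumor.

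None of the 7 simple keratins passed edgeR's test or reached an unadjusted p under 0.05 (limma voom called 3 higher, Krt8, Krt23 and Krt80, and 1 lower, Krt7), and their median log2 fold change was 0.11 (-0.03 without wild-type tumor 3). Krt7 had the lowest fold change, -1.15 ± 0.596 (SE, adjusted p = 0.236), from 1.41, 0.715, 1.51 and 1.29 CPM in wild-type to 1.33, 0.404, 0.149 and 0.354 CPM in ΔAgo2 tumors. ΔAgo2 tumor 1 stood among the wild-type values, and without it the fold change was -1.98 and the adjusted p 0.0356, in a range of 0.00333 to 0.498 over all alternatives. Krt23 was 0.93 ± 0.443 (adjusted p = 0.205), Krt80 0.51 ± 0.304 (0.296), Krt19 -0.41 ± 0.556 (0.654) and Krt20 -0.05 ± 0.475 (0.961). In the fit without wild-type tumor 3 the fold changes were -1.03 for Krt7, 0.72 for Krt23, 0.41 for Krt80, -0.22 for Krt19 and -0.03 for Krt20.

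The basal keratins varied over a wide range among wild-type tumors. In wild-type tumors 1 to 4, Krt14 measured 517, 578, 3.86 and 89.7 TPM, and in ΔAgo2 tumors 287, 424, 764 and 863 TPM. Krt5, its partner, was at 148.9, 147, 3.34 and 32.6 TPM and at 79.7, 139, 250 and 242 TPM. Wild-type tumors 1 and 2 lay within the ΔAgo2 range for both genes, wild-type tumor 4 lay below it, and wild-type tumor 3 had almost none.

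In wild-type tumor 3, Krt14 rested on 112 counts and Krt5 on 121 of 47146746. The Krt14 to Krt5 ratio of TPM was 2.75 to 3.95 in the other 7 tumors and 1.16 in that one. Krt15, a basal keratin also used to mark the hair follicle bulge, was at 0.82 to 9.80 TPM in wild-type and 2.60 to 19.0 TPM in ΔAgo2 tumors.

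None of the 3 basal keratins passed the test with edgeR, DESeq2 or limma voom, or reached an unadjusted p under 0.05 in edgeR. The log2 fold changes were 0.79 ± 0.927 (SE) for Krt14, 0.89 ± 0.782 for Krt5 and 0.01 ± 0.746 for Krt15, and the adjusted p-values were 0.601, 0.473 and 0.994. Leaving out wild-type tumor 3 gave 0.38 ± 0.474, 0.49 ± 0.422 and -0.38 ± 0.578, and leaving out wild-type tumors 3 and 4 gave -0.06 for Krt14.

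Of the 4 abundant classes, the suprabasal keratins were the one whose sum did not overlap between genotypes. It was 71.6, 63.8, 7.42 and 33.4 TPM in wild-type and 124, 157.6, 223 and 260 TPM in ΔAgo2 tumors, or 44.1 ± 29.5 and 191 ± 61.6 TPM (SD, n = 4 each). The ratio of the means was 4.33, and 3.39 without wild-type tumor 3. The same ratio was 1.99 for basal, 2.81 for stress and 1.38 for simple keratins, and 1.5, 2.11 and 1.27 without that tumor. Summed CPM gave smaller ratios than summed TPM. On the log2 scale they were 1.84 against 2.12 for suprabasal and 0.80 against 0.99 for basal keratins. For stress keratins they were 1.29 against 1.49, and for simple keratins 0.25 against 0.46.

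Krt10, the type I keratin of differentiating epidermis, had 20.97, 22.0, 3.30 and 15.5 CPM in the wild-type tumors, listed by replicate, and 62.0, 42.1, 70.2 and 83.2 CPM in the ΔAgo2 tumors. Every ΔAgo2 tumor lay above every wild-type tumor, and wild-type tumor 3 was the lowest of all. Krt10 rose by 2.06 ± 0.483 on the log2 scale (SE), with group means of 15.4 ± 8.59 and 64.4 ± 17.2 CPM (SD, n = 4), and passed the test (quasi-likelihood test of edgeR, Benjamini-Hochberg adjusted p = 0.0460).

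Without wild-type tumor 3 the rise was 1.72 ± 0.281 and the adjusted p 0.0144. The call was lost when other single tumors were left out: adjusted p was 0.0502, 0.10 and 0.111 without wild-type tumors 1, 2 and 4, and 0.0801, 0.0966 and 0.139 without ΔAgo2 tumors 2, 3 and 4. It was also lost at equal depth (0.0984), with the replicate block (0.13, or 0.0744 with GC correction) and without wild-type tumors 3 and 4 (0.062). Limma on log2(TPM + 1) gave 0.0519 with a filter and 0.153 without, and on log2(TPM + 0.1) 0.0757. The call thus failed in most of the 23 alternatives. The range over all of them was 0.00087 to 0.153, with log2 fold changes of 1.58 to 2.54.

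Krt10 was 1 of 20 tested keratins called higher, against 1.36% of all 16061 genes tested, and 0 were called lower, against 2.12%. At an unadjusted p under 0.05, 3 keratins were higher (Krt10, Krt77 and Krt78), against 13.7% of all genes tested, and 0 lower, against 13%, so the share higher was near that of all genes. Without wild-type tumor 3, 1 of 21 was called higher, against 2.21%, and 0 lower, against 3.48%. DESeq2's Wald test called 3 of 23 keratins higher (Krt10, Krt77 and Krt78), against 6.52% of all genes, and 0 lower, against 6.56%. Limma voom called 6 of 20 higher, against 14.9%, and 1 lower, against 13%.

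Krt77, a type II keratin related to Krt1, was at 8.51, 6.44, 2.46 and 18.4 CPM in wild-type and 38.1, 17.7, 29.7 and 38.3 CPM in ΔAgo2 tumors. In these TMM-scaled CPM, ΔAgo2 tumor 2 lay just under wild-type tumor 4, and the groups were otherwise apart. In TPM they did not overlap (2.42 to 12.6 in wild-type and 22.2 to 44.5 in ΔAgo2 tumors). The log2 fold change was 1.84 ± 0.508 (SE) and the adjusted p 0.0701. It was 1.51 ± 0.405 and 0.0536 without wild-type tumor 3, and 2.42 and 0.0324 without wild-type tumor 4, in a range of 0.00431 to 0.188 over all alternatives.

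Krt1, the partner of Krt10, was at 53.3, 42.4, 0.484 and 12.8 CPM in wild-type and 60.8, 74.2, 118 and 104 CPM in ΔAgo2 tumors. In CPM the groups did not overlap, but in TPM ΔAgo2 tumor 1 (30.2) lay below wild-type tumor 1 (34.5). Wild-type tumors spread over a wide range and the test was not passed (1.71 ± 0.868, SE, edgeR adjusted p = 0.230). Without wild-type tumor 3 the values were 1.29 ± 0.429 and 0.0840.

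Krt78, named here after its values were seen, was low, with 0.731, 0.667, 0.210 and 0.287 CPM in wild-type and 1.09, 0.763, 1.94 and 1.41 CPM in ΔAgo2 tumors. It rested on 2 to 39 counts in wild-type tumors, and its fold change was 1.39 ± 0.498 (SE, adjusted p = 0.120; 1.08 ± 0.484 and 0.161 without wild-type tumor 3). DESeq2's Wald test gave an adjusted p of 0.0484, in a range of 0.0380 to 0.351 over all alternatives.

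Krt2 is a keratin of late epidermal layers, and Krt9 is a suprabasal keratin of palmar skin. Krt2 had 0 counts in the wild-type tumors and in ΔAgo2 tumor 1, and 13, 1 and 5 counts in ΔAgo2 tumors 2, 3 and 4. Krt9 had none, and both were too low to test.

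In CPM, 3 of 20 tested keratins (Krt1, Krt10 and Krt78) did not overlap between groups with ΔAgo2 higher, against 8.05% of all genes tested. With ΔAgo2 lower it was 0, against 8.36%. The fold change was above 0 for 16 of 20 keratins, against 8427 of 16061 genes, and for 13 of 21 without wild-type tumor 3. The median over the tested keratins was 0.84 (0.41 without wild-type tumor 3), against 0.04 (0.07) over all genes. By class the median was 1.77 for suprabasal, 1.09 for stress and 0.79 for basal keratins, and 1.40, 0.68 and 0.38 without that tumor. These medians describe the lists and carry no test.

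**Figure D2:**
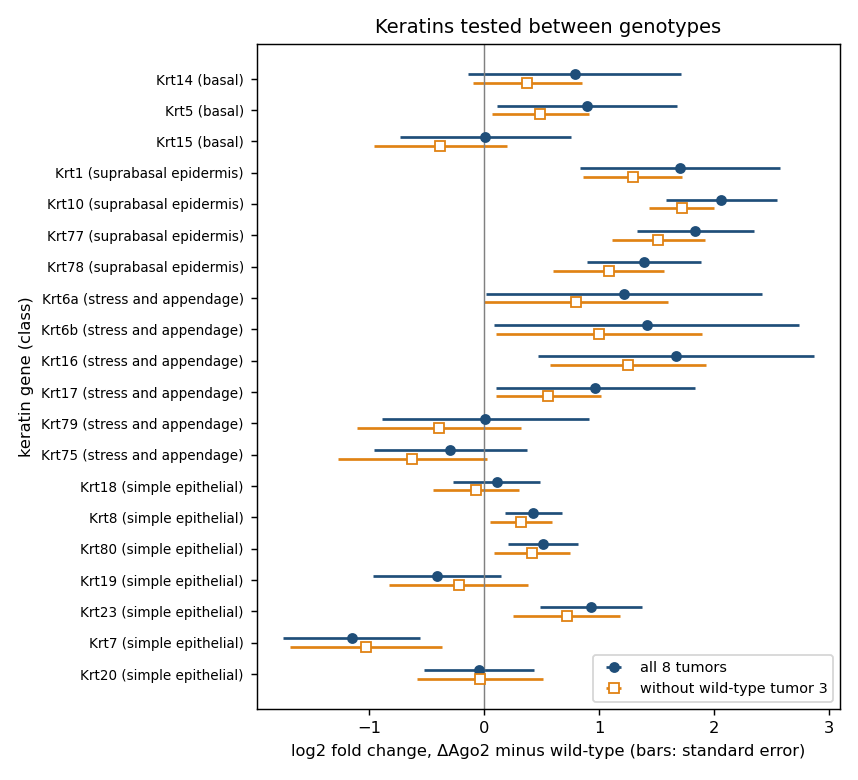
Log2 fold change (ΔAgo2 minus wild-type, horizontal axis) with its standard error for the 20 tested keratins, from all 8 tumors (filled circles) and without wild-type tumor 3 (open squares). The suprabasal keratins Krt1, Krt10, Krt77 and Krt78 lie between 1.39 and 2.06 with all tumors, and the bars of the stress keratins Krt6a, Krt6b and Krt16 are the widest.

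Within a tumor the suprabasal genes did not keep one proportion. Over 12 ratios of keratins, chosen after the values were seen and given with no test, Krt1 to Krt5 was one in which the genotypes did not overlap: 0.231, 0.187, 0.0958 and 0.178 in wild-type and 0.379, 0.444, 0.337 and 0.330 in ΔAgo2 tumors. Krt10 to Krt14, their type I counterparts, overlapped: 0.0547, 0.0513, 1.17 and 0.165 in wild-type and 0.225, 0.172, 0.137 and 0.155 in ΔAgo2 tumors. The Krt10 to Krt1 ratio was 0.821, 1.09, 14.1 and 2.54 in wild-type and 2.13, 1.18, 1.24 and 1.67 in ΔAgo2 tumors. Krt77 to Krt1 was likewise 7.56 and 2.17 in wild-type tumors 3 and 4 against 0.229 to 0.945 in the other tumors, so Krt10 and Krt77 were detected in the 2 tumors with the least Krt1 at more than the proportion found elsewhere.

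**Figure D3:**
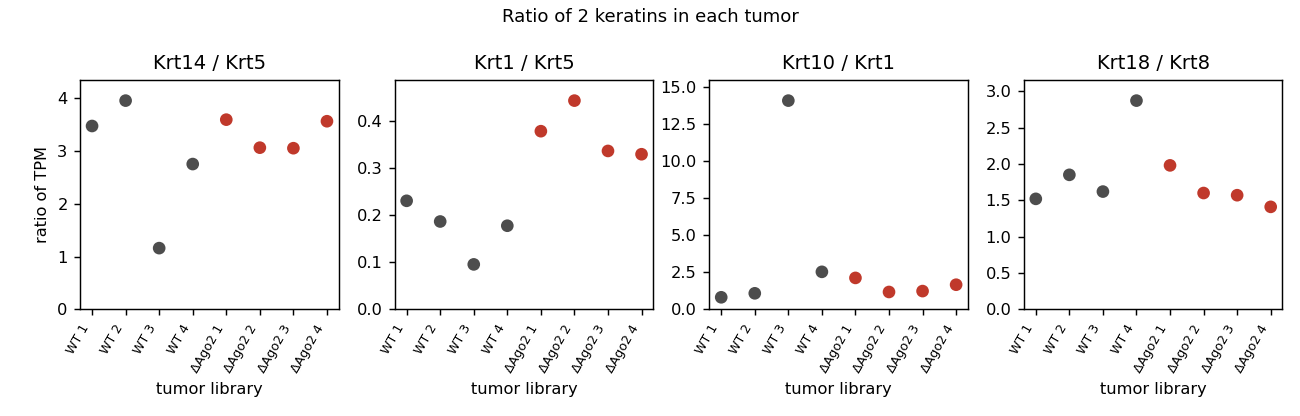
Ratio of the TPM of 2 keratins in each wild-type (WT, grey) and ΔAgo2 (red) tumor, each panel with its own axis from 0. Krt1 to Krt5 is 0.0958 to 0.231 in wild-type and 0.330 to 0.444 in ΔAgo2 tumors, and Krt10 to Krt1 reaches 14.1 in WT 3.

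The stress and appendage keratins of the epidermis spread even further than the basal ones. Krt16, a type I keratin of wounded and hyperproliferative skin, was at 105, 66.8, 0 and 5.73 CPM in wild-type and 103, 90.6, 170 and 204 CPM in ΔAgo2 tumors. Krt6a was at 132, 119, 0.147 and 4.16 CPM and at 62.3, 98.9, 210 and 222 CPM. Krt6b was at 124, 89.2, 0 and 1.43 CPM and at 62.3, 90.1, 189 and 233 CPM. Wild-type tumors 1 and 2 lay within the ΔAgo2 range, except tumor 2 for Krt16, while wild-type tumors 3 and 4 lay far below it.

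Krt17, which is also made in hair follicles, was at 69.9, 107, 1.01 and 22.9 CPM in wild-type and 78.5, 58.6, 137 and 120 CPM in ΔAgo2 tumors. In wild-type tumor 4 its level was 29.8 TPM, above Krt16 (7.38), Krt6a (3.46) and Krt6b (1.29). None of the 6 stress keratins passed the test with edgeR, DESeq2 or limma voom (0 with an unadjusted p under 0.05 in edgeR), with log2 fold changes of 1.67 ± 1.20 (SE, adjusted p = 0.380) for Krt16, 1.41 ± 1.33 (0.505) for Krt6b, 1.22 ± 1.20 (0.528) for Krt6a and 0.97 ± 0.865 (0.482) for Krt17. Without wild-type tumor 3 these were 1.25 ± 0.677, 1.00 ± 0.896, 0.80 ± 0.801 and 0.56 ± 0.456.

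Counts of Krt6a and Krt6b cannot be fully separated: 47.5% of the 100-base windows of Krt6a also occur in another transcript, 29.5% in Krt6b, and 24.3% of those of Krt16 occur in another transcript. Krt79, a keratin of the hair canal, was at 16.2, 18.3, 0.568 and 4.01 CPM in wild-type and 6.22, 2.51, 25.8 and 5.42 CPM in ΔAgo2 tumors (log2 fold change 0.01 ± 0.899, SE, adjusted p = 0.995). Krt75, of the companion layer of the hair follicle, stayed at or below 1.59 CPM (-0.29 ± 0.663, adjusted p = 0.798). Leaving out wild-type tumor 3 gave -0.39 for Krt79 and -0.62 for Krt75. ΔAgo2 tumor 3 was the highest for Krt79 and wild-type tumor 1 for Krt75, and neither gene ranked the tumors as Krt14 did.

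**Figure D4:**
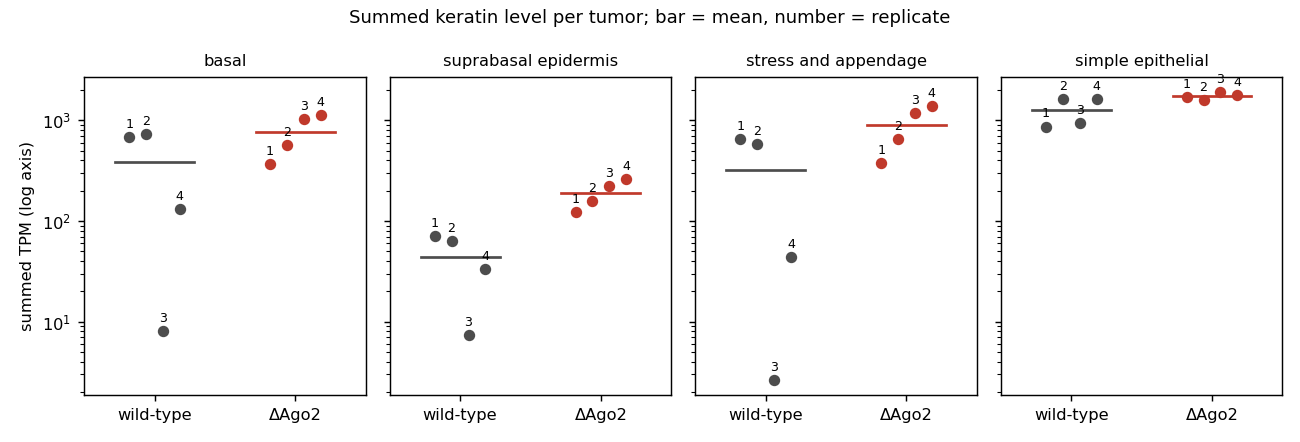
Summed TPM of the basal, suprabasal, stress and simple keratins in each tumor, on a logarithmic axis, with the group mean as a bar and the replicate number beside each point. The suprabasal sums do not overlap between genotypes (at most 71.6 in wild-type and at least 124 in ΔAgo2 tumors), and wild-type tumor 3 is the lowest in the 3 epidermal classes but not in the simple class.

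As the epidermal classes varied more than the simple class, the make-up of the keratin pool differed between tumors. Simple keratins were 38.3%, 54.1%, 97.0% and 88.4% of the keratin TPM of the wild-type tumors and 66.0%, 53.7%, 44.1% and 39.2% of that of the ΔAgo2 tumors. Suprabasal keratins were 0.761% to 3.17% of it in wild-type and 4.83% to 5.75% in ΔAgo2 tumors. In whole tumors, fewer cells of a type and less RNA per cell cannot be told apart.

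Wild-type tumor 3 was also the one with inner root sheath keratins. The 7 genes of this class had 300 counts there, 6.36 CPM of the unscaled library total (95% Clopper-Pearson interval 5.66 to 7.13), and between 0 and 8 counts in each other tumor. Krt71 had 118 counts in that tumor and 0 in the other 7. Krt25 had 71 and Krt27 had 54, against at most 1 and 4 elsewhere.

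All 7 inner root sheath keratins were detected in wild-type tumor 3, and 4 of them in no other tumor. The deepest library, ΔAgo2 tumor 4, gave 8 counts for the class, or 0.0298 CPM (0.0129 to 0.0587), and a library at 0 allows up to 0.0942 (ΔAgo2 tumor 3) to 0.380 (wild-type tumor 4) CPM. These intervals and limits cover counting error only. None of the 7 passed the filter on low counts, and without that filter Krt25, Krt71 and Krt73 were called lower, a difference that rests on this 1 tumor.

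Hair cortex and cuticle keratins were scarce. The 15 genes together had 16, 14, 58 and 10 counts in the wild-type tumors, or 0.303, 0.677, 1.23 and 1.27 CPM, and 12, 19, 9 and 58 counts in the ΔAgo2 tumors, or 0.179 to 0.283 CPM. The groups did not overlap, with ΔAgo2 lower, but the interval of wild-type tumor 1 (0.173 to 0.492) overlapped those of the ΔAgo2 tumors. The most abundant were Krt36, with 1 to 10 counts a tumor and its highest count in wild-type tumor 4, Krt83 with 0 to 14 and Krt84 with 0 to 30.

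In wild-type tumor 3, 9 keratins were found that no other tumor had, among them Krt33b with 11 counts. The keratin-associated proteins Krtap8-1 and Krtap11-1, which are hair shaft proteins, also had their counts (7 and 4) there alone. Tchh, which encodes the inner root sheath protein trichohyalin, had 56 counts in that tumor and 96 in the much deeper ΔAgo2 tumor 4. The hair follicle list as a whole did not single out wild-type tumor 3. Its 18 genes summed to 35.56 TPM there, to 38.93 TPM in ΔAgo2 tumor 4 and to 24.35 to 29.54 TPM in the other tumors. Muscle genes were high in the same tumor: Acta1 was at 1429 CPM there and at 19.5 to 223 CPM in the others. Adipocyte genes summed to 466 TPM there, to 691 TPM in ΔAgo2 tumor 1 and to 18.3 to 70.9 TPM in the other 6. Their part in the keratin values was not tested.

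**Figure D5:**
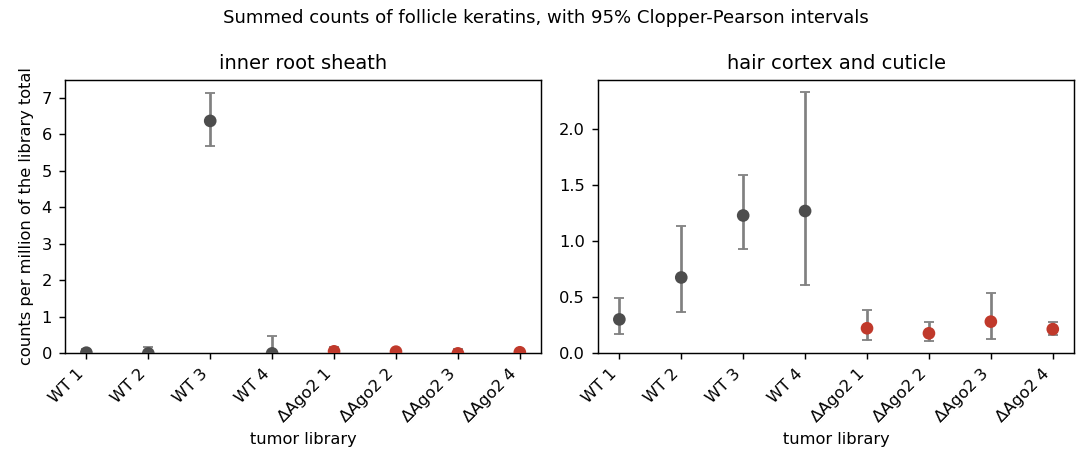
Summed counts of the inner root sheath and of the hair cortex and cuticle keratins in CPM of the unscaled library total, in wild-type (WT, grey) and ΔAgo2 (red) tumors, with 95% Clopper-Pearson intervals as bars and each panel on its own axis from 0. WT 3 reaches 6.36 CPM for the inner root sheath class, and each other tumor had 0 to 8 counts.

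The keratins of internal stratified epithelia, such as the lining of the esophagus, were nearly absent, with 6 to 34 counts a tumor over 5 genes. Krt4 had 3 to 20 counts, and without wild-type tumor 3 it passed the filter and was tested (-2.40 ± 0.839, SE, adjusted p = 0.0945), with 12 of its counts in wild-type tumor 4. Krt13, its partner, had 0 to 8 counts and Krt76, of the palate, 0 to 3.

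Genes that work with keratins in the epidermis were read in the same fit. Of 31 tested cornified envelope genes, edgeR called 3 higher, against 1.36% of all genes, and 0 lower, against 2.12%. All 31 had a fold change above 0, against 8427 of 16061 genes. Their median was 1.81 (1.39 without wild-type tumor 3), against 0.04 (0.07) over all genes. DESeq2 called 10 higher and limma voom 15, against 6.52% and 14.9% of all genes, and both called 0 lower. Lce1m, of the late cornified envelope, rose from 0.539 ± 0.185 to 3.09 ± 1.38 CPM (SD, n = 4; log2 fold change 2.57, edgeR adjusted p = 0.0182; 2.37 and 0.0368 without wild-type tumor 3). Ivl, which encodes the envelope protein involucrin, rose from 0.370 ± 0.384 to 2.99 ± 1.22 CPM (2.81, edgeR adjusted p = 0.0456; 2.47 and 0.0504 without wild-type tumor 3), and Flg2, a filaggrin relative, from 0.274 ± 0.207 to 1.59 ± 0.598 CPM (2.41, edgeR adjusted p = 0.0437; 2.05 and 0.0496 without that tumor). Over all alternatives their adjusted p ranged from 4.42e-06 to 0.107 for Lce1m, from 0.000116 to 0.168 for Ivl and from 0.000707 to 0.195 for Flg2.

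The summed cornified envelope level was 682, 544, 44.8 and 140 TPM in wild-type and 783, 882, 1352 and 1740 TPM in ΔAgo2 tumors, the same order of wild-type tumors as for Krt1. The most abundant of these genes were Lgals7, Sfn and Dmkn, none of which passed the test (edgeR adjusted p = 0.202, 0.182 and 0.0897).

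Of 19 desmosome and keratin linker genes, 0 were called, with a median of 1.17 (0.93 without wild-type tumor 3). An unadjusted p under 0.05 was reached by 8 upward and 2 downward, against 13.7% and 13% of all genes. In the fit without wild-type tumor 3, 1 was called lower, the integrin gene Itgb4 (-1.30, edgeR adjusted p = 0.0405; -1.17 and 0.0559 with it; 0.00618 to 0.351 over all alternatives). The abundant ones went separate ways: plectin (Plec) had a log2 fold change of -0.68 (edgeR adjusted p = 0.156), integrin alpha 6 (Itga6) 0.85 (0.0896) and plakoglobin (Jup) 1.05 (0.0707). The 17 epithelial identity genes, led by Spint1, Cdh1 and Spint2, gave 0 calls with or without that tumor (unadjusted p under 0.05 in 9, all higher, against 13.7% of all genes), with a median of 1.21 (0.90). For 15 keratinocyte regulators, led by Sox9, Klf4 and Tfap2a, edgeR made 0 calls (unadjusted p under 0.05 in 3 higher and 2 lower, near the 13.7% and 13% of all genes), and the median was 0.49 (0.32). With that tumor left out, 1 was called lower, Tfap2c (-1.38, edgeR adjusted p = 0.0416; -1.21 and 0.0707 with it; 0.00615 to 0.522 over all alternatives).

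In TPM, the 15 listed other intermediate filament genes summed to more than the keratins in every tumor. Their sum was 3207 to 4710 in wild-type and 3940 to 5188 in ΔAgo2 tumors. The margin was narrow in ΔAgo2 tumor 4 (4729 against 4519 for the keratins). Vimentin (Vim), of mesenchymal cells and many carcinoma lines, was at 4612 to 7199 CPM and did not separate the genotypes (log2 fold change 0.11, edgeR adjusted p = 0.780). Among the 11 of these 15 genes that were tested, edgeR called 3 lower, against 2.12% of all genes, and 0 higher, against 1.36%. The 3, all of neurons, were Nefm, Nefl and Prph. They fell by 3.80, 4.46 and 1.96 on the log2 scale (edgeR adjusted p = 0.00213, 0.00298 and 0.0262). Nefm was at 2.32 to 3.58 CPM in wild-type and at 0.130 to 0.263 CPM in ΔAgo2 tumors, with no overlap. Wild-type tumor 3 was not apart for Nefm (2.57 CPM). Of the 11, 3 did not overlap with ΔAgo2 lower, against 8.36% of all genes tested, and 1 with ΔAgo2 higher, against 8.05%.

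Markers of other cells were set beside these. Of 10 muscle genes, all had a fold change below 0 (median -2.79, and -0.82 without wild-type tumor 3). EdgeR called 1 lower, Myh2, against 2.12% of all genes (-2.84, edgeR adjusted p = 0.0305). Without wild-type tumor 3, Myh2 was again the 1 called lower by edgeR, against 3.48% of all genes (-2.001, edgeR adjusted p = 0.0345). The summed melanocyte list stayed at or below 1.06 TPM and the lung epithelium list at or below 1.01 TPM in every tumor. Leukocyte and fibroblast genes gave 0 calls with medians of 0.03 and -0.67 (0.04 and -0.44 and again 0 calls without wild-type tumor 3), where an unadjusted p under 0.05 was reached by 1 of 7 and 1 of 6 genes upward, against 13.7% of all genes, and by 1 and 3 downward, against 13%. In the sebaceous gland list, 0 of 5 were called with 1 higher and 0 lower at that level, and in the hair follicle list 0 of 5, likewise with 1 and 0. Without wild-type tumor 3 the sebaceous list had 1 call higher, Soat1 (0.76, edgeR adjusted p = 0.0496; 0.66 and 0.0666 with it; 0.00718 to 0.684 over all alternatives). The adipocyte list (7 tested), melanocyte list (1) and mesothelium list (1) gave 0 calls, with only the mesothelial gene Msln at an unadjusted p under 0.05. DESeq2, which called 6.52% of all genes higher and 6.56% lower, made calls in some lists with 0 calls by edgeR. It called 7 higher and 1 lower of the desmosome genes, 5 and 0 of the epithelial identity genes, and 3 and 1 of the regulators. Of the hair follicle, sebaceous, leukocyte and mesothelium genes it called 1 and 0 each. Of the fibroblast genes it called 0 and 2, and of the adipocyte and melanocyte genes 0. Limma voom called 12 and 1, 9 and 0, and 7 and 2 of the first 3 lists, with 19, 17 and 15 genes tested. It called 14.9% of all genes higher and 13% lower.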

How the data were processed

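Bulk RNA-seq of 8 LLC tumors (4 wild-type, 4 ΔAgo2) was analysed from 2 deposited tables. The deposited counts are raw whole-number counts per Ensembl gene; per the labels the authors used STAR and mm10, the stranded mRNA libraries were read as paired ends, and the counting settings for tumors are not given in the sources used here. The deposited TPM values were scaled by the authors to gene length and to the same sum in each library. Of 55487 identifiers, 55094 had an entry of the same version in GENCODE M21.

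Counts were filtered with filterByExpr, scaled by TMM and tested with edgeR 4.0.16 (R 4.3.3) by the quasi-likelihood test, ΔAgo2 minus wild-type, with Benjamini-Hochberg adjustment over all 16061 genes tested and a threshold of 0.05. SE is the fold change divided by the root of its F statistic. The limit for a class at 0 is 3 counts. Alternatives were other scalings and filters, DESeq2 1.42.0, limma 3.58.1 (voom, or log2(TPM + pseudocount) with pseudocounts of 1 and 0.1), GC correction, thinning to the shallowest library, a replicate block and leaving out each tumor. Leaving out wild-type tumors 3 and 4 together was added after seeing the data. The fit was tested on simulated data. Total counts of 7903288 to 268564145 give unequal precision at low levels.

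The members and lists were chosen with earlier results of these data known. Named genes were the basal, suprabasal (Krt1, Krt2, Krt10, Krt77), stress and simple keratins, Krt4, Krt13 and Krt76, the 3 highest of each follicle class, every keratin with an adjusted p up to 0.10, and of each other list the 3 highest genes and those passing the test, printed where they bear on a keratin result. Others named were chosen after their values were seen.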

Additional observations from a re-analysis of the deposited data

Results flagged for a closer look

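Within a genotype, 48 sets of 4 values (20 keratins and 4 class sums, in 2 genotypes) were searched for a tumor that lay far from the other 3 by Dixon's gap criterion at the 95% level, which chance exceeds in about 2.4 of 48 sets. It was exceeded in 2. For Krt79 it was ΔAgo2 tumor 3, with 25.8 CPM where the rest of that genotype had 2.51 to 6.22 CPM. For Krt75 it was wild-type tumor 1, with 1.59 CPM where its genotype otherwise had 0.252 to 0.477 CPM. Neither gene passed the test between genotypes.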

How the results depend on the processing

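Depth limited the low keratins, since 1 to 3 counts separate detection from none in the shallower libraries. Against 1 keratin higher, 0 lower and 560 genes called in all, DESeq2's Wald test gave 3, 0 and 2265, limma voom 6, 1 and 4476, no count filter 2, 3 and 983, and GC correction 3 higher. Equal depth gave 0 higher and 31 in all. Limma on log2(TPM + 1) gave 153 in all with a filter and 77 without, and on log2(TPM + 0.1) 107, with 0 keratins higher in the last 2. Without wild-type tumors 3 and 4 it was 134 in all. Leaving out 1 tumor gave 0 to 1 keratins higher, 0 to 1 lower, and 88 (without ΔAgo2 tumor 4) to 1793 (without ΔAgo2 tumor 1) genes in all. The replicate numbers do not pair the tumors (correlations of deviations -0.236, 0.103, -0.0448 and -0.290), and the replicate block gave 0 keratins higher, 0 other listed genes higher and 70 genes in all, or 306 with GC correction. The TPM fits with a filter moved the median of all genes from 0.04 to 0.22 and 0.27. The counts of other listed genes that follow have to be read against the calls over all genes. EdgeR called 1.36% of all genes higher and 2.12% lower, DESeq2 6.52% and 6.56%, and limma voom 14.9% and 13%. Other listed genes were 3 higher and 4 lower: DESeq2 gave 30 and 12, voom 49 and 14, no filter 13 and 15, at least 10 counts in every library 0 and 2, GC correction 10 higher, equal depth 0 and 0, the TPM fits 1 and 2, 1 and 2, and 0 and 2, omission of wild-type tumors 3 and 4 gave 0 and 2, and omission of 1 tumor 0 to 14 and 2 to 6.

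Some small fold changes turned sign. Krt14 was -0.058 without wild-type tumors 3 and 4. Krt15 (0.01) was -0.0089 with DESeq2 size factors, -0.034 with upper quartile scaling, -0.33 with the replicate block, -0.040 with GC correction and block, -0.66 at equal depth, -0.28 without wild-type tumors 3 and 4 and -0.76 to 0.32 without 1 tumor. Krt79 (0.0096) was -0.0031, -0.030, -0.14, -0.22, -0.22, -0.80 and -1.06 to 0.49 in that order, -0.031 with voom and -0.013 with GC correction. Krt20 (-0.05) was 0.040 by total counts, 0.25 with voom, 0.011 without a filter, 0.0018 with the replicate block, 0.12, 0.23 and 0.12 in the TPM fits, 0.39 without wild-type tumors 3 and 4 and -0.33 to 0.24 without 1 tumor. Krt19 was 0.69 without wild-type tumors 3 and 4 and -1.01 to 0.023 without 1 tumor. Krt75 was 0.027 with GC correction and block, 0.024 in the unfiltered TPM fit and -0.74 to 0.69 without 1 tumor. Krt18 was -0.11 to 0.54 without 1 tumor. The cause was not tested. The sums of the basal, suprabasal, stress and simple classes kept their direction under summed CPM and without each tumor in turn; the low classes were not among these, and the ratio of the inner root sheath class went from 0.0273 to 6.25 without wild-type tumor 3, where at most 8 counts a tumor remained.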
